A study of Mus musculus with 27 samples.

Results

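The genes described here encode the machinery that builds ribosomes: 40 mouse genes for RNA polymerase I, small nucleolar ribonucleoprotein (snoRNP) proteins, assembly factors of the small and the large ribosomal subunit, and multifunctional nucleolar proteins. They were chosen by gene symbol from knowledge of the pathway, with earlier results of these data known. Of the 40 genes, 38 were measured among 19938 genes, and Noc2l and Npm3 were not analysed here because no probe set carried either symbol alone. All arrays carried total RNA of 3T3-L1 cells, an established mouse preadipocyte line, transduced with the retroviral vector pMIG, either with Flag-ISL1 or empty. ISL1 is a LIM homeodomain transcription factor. The 9 groups had 3 arrays each, called biological triplicates in the design text: Flag-ISL1 cells at 0 and 48 h, and empty vector cells at 0, 0.5, 1, 2, 4, 8 and 48 h. Differentiation medium was added 2 days after confluence and held insulin at 350 nM, dexamethasone at 250 nM, biotin at 400 nM, isobutylmethylxanthine (IBMX) at 0.5 mM and 10% fetal calf serum. The 0 h cells were collected just before it was added, and no ISL1 group exists between 0 and 48 h. The labels do not say how many transduced populations the arrays of a group stand for.

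Ribosome production starts in the nucleolus, where RNA polymerase I transcribes the ribosomal RNA precursor. snoRNPs modify and help cut this precursor, and assembly factors fold it with ribosomal proteins into the small and the large subunit before both are exported. The pathway is among the most costly of a growing cell, and it is known to be switched on when resting cells receive serum or growth factors. Confluent 3T3-L1 cells given the hormone mixture are known to re-enter the cell cycle before they accumulate fat.

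Values are log2 intensities, and a difference of 1 log2 unit is a 2-fold difference. A gene was called changed when its adjusted p from limma, over all 19938 genes of a comparison, was under 0.05. Errors beside differences are standard errors of that fit, with 3 arrays in each group. Array medians ran from 7.89 to 8.07. The 38 genes had means over all arrays between 8.66 and 12.6, and the dimmest of them was brighter than 54.8% of the genes tested. The lists of 4 macrophage, 3 endothelial and 3 epithelial markers averaged between 6.85 and 7.55 log2 units in every group, below the array medians. Of these, Cd68 (group means 8.21 to 9.33) and Krt8 (8.15 to 8.46) lay above the array medians in every group. The 8 fibroblast markers averaged between 11.95 and 13.16, and the 8 adipocyte markers between 8.49 and 11.58.

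At 48 h the labels went against the Isl1 signal. Isl1 measured 12.64, 12.62 and 12.61 on the ISL1 arrays at 0 h and 7.37, 7.47 and 7.17 on the vector arrays at 0 h. The arrays labelled ISL1 at 48 h gave 7.48, 8.01 and 7.47, against 12.79, 12.76 and 12.72 on the arrays labelled vector at 48 h. Every 48 h value is given by its label, and counts of members over all roles are also given with the 48 h labels exchanged. By the Isl1 signal, comparisons of 48 h with an earlier time as labelled set high-signal arrays against low-signal ones. With the labels exchanged, both sides of these comparisons have a like signal, so the exchanged values are those that follow a like Isl1 level over time. The comparisons between 0 and 8 h do not use these arrays.

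During the first hour in medium the 38 genes stayed near their starting level. At 0.5 h no member was called, none had an unadjusted p under 0.05, and differences from 0 h lay between -0.14 for Bysl and 0.14 for Fbl (0.777% of all genes were called higher and 1255 genes had an unadjusted p under 0.05). At 1 h only Nolc1 was called higher, where 2.78% of all genes were, and it was also the only member called against 0.5 h (1.84% of all genes). Nolc1 encodes a chaperone of snoRNPs. It measured 10.41, 10.32 and 10.44 at 1 h, against 10.12, 10.10 and 10.12 at 0 h, a difference of 0.28 ± 0.0551 (adjusted p = 0.000956). The 1 h arrays lay above all 0 h arrays. After quantile normalization 3 members were called higher and 1 lower at 1 h. The Nolc1 call was lost in a fit of only the arrays compared (adjusted p = 0.0847). The median over the 38 genes, relative to the 0 h mean, was -0.19 on 1 array at 1 h and 0.06 and 0.05 on the others. Without that array 2 members were called at 1 h against 0 h and 3 against 0.5 h.

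From 2 h on most of the genes rose, and by 4 h every measured member was higher than at 0 h. At 2 h 26 of 38 were called higher and none lower, with a median difference of 0.45, where 10.9% of all genes were called higher. Of these, 6 were at least 2-fold higher, where 1.89% of all genes were. At 4 h 38 of 38 were called higher (median 1.41), 26 of them at least 2-fold, where 17.3% of all genes were called higher and 3.14% were at least 2-fold higher. At 8 h 38 of 38 were called again (median 1.41), 30 at least 2-fold, against 24.2% and 3.04% of all genes. The median over all genes moved by no more than 0.07 at these times. For all 38 members at 4 h and at 8 h, the 3 arrays lay above the 3 arrays at 0 h. The share of all genes with arrays apart in this way was not counted. When 1 array at a time was left out, Wdr12, Nop16 and Ncl each lost the 2 h call in 1 of 6 fits, and Ltv1 lost the 4 h call in 3.

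Markers of other cell types and of the fat cell lineage moved over the same hours. Among the 4 macrophage markers only Cd68 was called, higher by 1.03 ± 0.0798 at 4 h and 0.90 at 8 h. Cdh5 alone was called among the 3 endothelial markers (0.65 ± 0.0830 at 4 h and 0.80 at 8 h), and none of the 3 epithelial markers was. Of the 8 fibroblast markers 5 were lower at 4 h (median -0.35) and 6 at 8 h (median -0.56), with Pdgfrb the lowest at 8 h (-1.72 ± 0.0733). Of the 8 adipocyte markers 4 were lower at 4 h (median -0.19) and 6 at 8 h (median -0.37). Their part in the rise of the members was not tested.

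Between neighbouring times up to 8 h the median of the 38 per-gene differences was largest between 2 and 4 h. The intervals differ in length, with 1 to 2 h shorter than 2 to 4 h, so these medians are not rates per hour. It was 0.50 between 1 and 2 h, with 29 called higher where 9.47% of all genes were. Between 2 and 4 h it was 0.74, when all 38 were called and 13.7% of all genes were. Between 4 and 8 h it was 0.15, with 15 called higher and none lower, where again 13.7% of all genes were called higher (17 higher and 2 lower after quantile normalization). The 4 to 8 h differences ran from -0.28 ± 0.183 for Rrs1, which was not called, to 0.53 ± 0.0922 for Fbl. When 1 array at a time was left out, 6 of the 29 calls between 1 and 2 h were lost in at least 1 of 6 fits. So were 3 of the 38 between 2 and 4 h (Fbl in 4 fits, Polr1c in 3 and Npm1 in 1). Of the 15 between 4 and 8 h, 6 were lost in this way, those of Nop58 and Pes1 in 5 fits. At 2 h the genes had reached a median of 30.4% of their 8 h difference, and at 4 h 88.6%. The highest group mean fell at 4 h for 7 members and at 8 h for 31. Per array, the median over the 38 genes was 0.39, 0.46 and 0.46 above the 0 h mean at 2 h. It was 1.41, 1.42 and 1.40 above it at 4 h, and 1.35, 1.51 and 1.38 at 8 h.

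**Figure D1:**
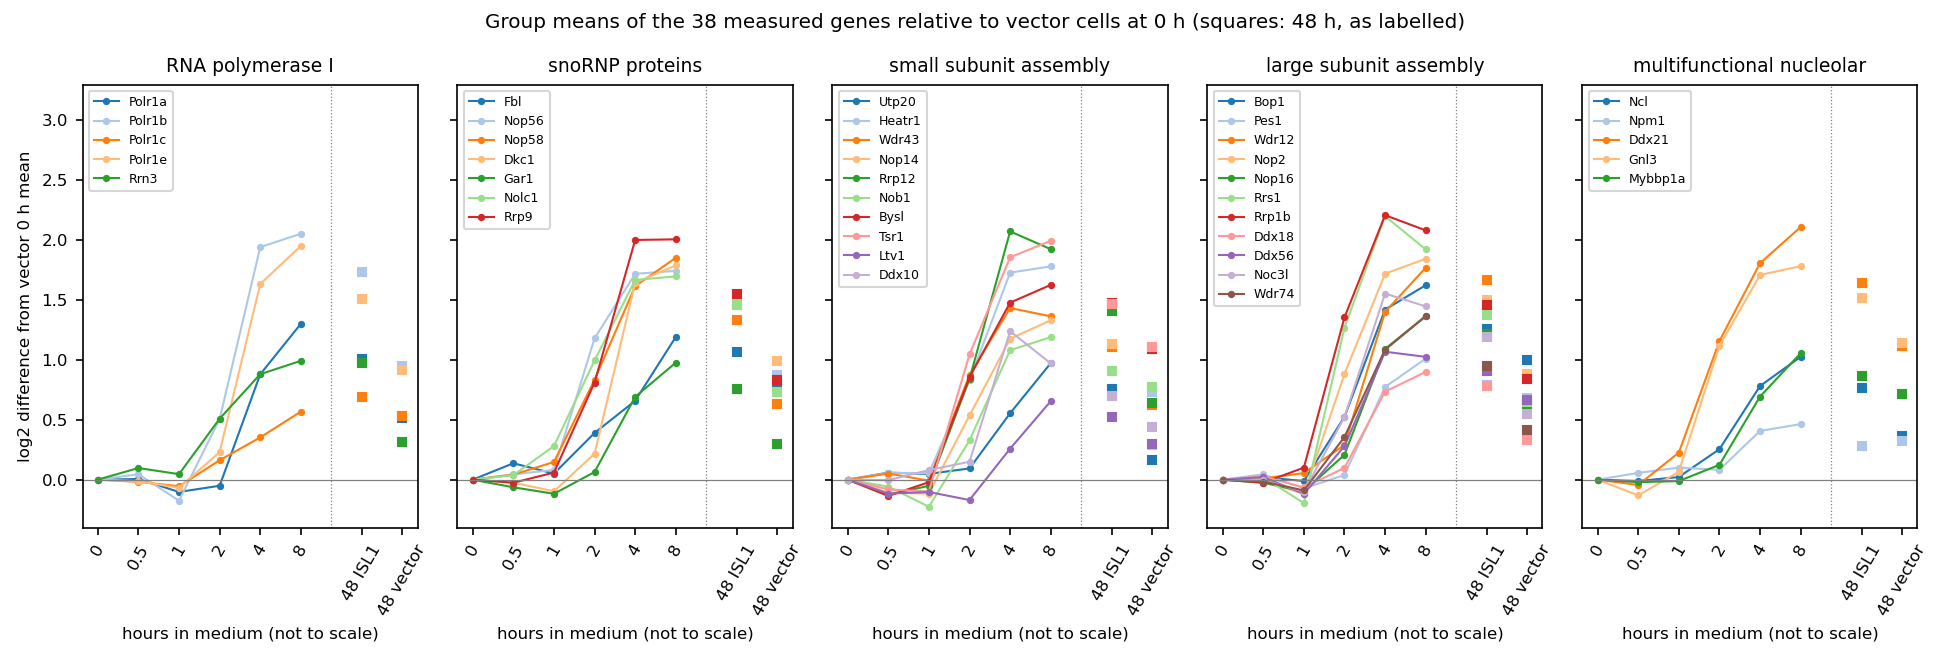
Group means of the 38 measured genes in 5 role panels, as the log2 difference from the mean of vector cells at 0 h (vertical axis), over hours in medium (horizontal axis, not to scale). Lines join the vector cell groups from 0 to 8 h and squares give the 48 h groups as labelled; the lines leave 0 between 1 and 4 h, and Rrp1b reaches 2.21 at 4 h while Npm1 stays at 0.46 at 8 h.

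The 5 RNA polymerase I genes were all higher at 8 h, by a median of 1.30 and a range from 0.57 to 2.05. Polr1b, which encodes a core subunit, measured 11.88, 11.97 and 11.85 at 8 h, against 9.94, 9.88 and 9.73 at 0 h. That is 2.05 ± 0.0944, or 4.15-fold (adjusted p = 1.29e-15). Polr1e, an associated subunit, rose by 1.95 ± 0.0940, and Polr1a, the largest subunit, by 1.30 ± 0.0742. Rrn3, the initiation factor that brings the polymerase to its promoter, rose by 0.99 ± 0.0811 and was already called at 2 h (0.51). Polr1c, a subunit shared with RNA polymerase III, changed least. It measured 11.94, 11.80 and 11.86 at 8 h, against 11.38, 11.30 and 11.21 at 0 h, a 1.48-fold difference (0.57 ± 0.0645, adjusted p = 3.58e-08). Only 2 of the 5, Polr1b and Rrn3, were called at 2 h.

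Of the 7 snoRNP genes, 5 were called at 2 h, and the median rise at 8 h was 1.74, the highest of the 5 role groups. Rrp9, a protein of the U3 snoRNP, which guides early cuts, measured 10.94, 11.00 and 10.95 at 8 h, against 8.90, 9.06 and 8.92 at 0 h. It rose by 2.01 ± 0.0714, or 4.02-fold (adjusted p = 8.21e-18), and the value at 4 h was already 2.00. Nop56, a core protein of the snoRNPs that direct ribose methylation, had risen by 1.18 ± 0.0620 at 2 h. Dkc1, the pseudouridine synthase, and Gar1, its partner in the same particles, were not called at 2 h. They differed then from 0 h by 0.22 ± 0.0908 and 0.06 ± 0.0637. At 8 h Gar1 measured 11.52, 11.66 and 11.43, against 10.52, 10.59 and 10.57 at 0 h, the smallest rise of the group (0.98 ± 0.0637, adjusted p = 1.25e-12). Fbl, the methyltransferase itself, had reached 55.2% of its 8 h difference at 4 h.

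Among the 10 small subunit factors 7 were called at 2 h and 10 at 4 h. Tsr1, a late assembly factor, measured 11.31, 11.59 and 11.38 at 8 h, against 9.54, 9.48 and 9.27 at 0 h, the largest rise of this group (1.99 ± 0.0990, 3.98-fold, adjusted p = 5.69e-15). Ltv1, which acts at the same late stage, gave the smallest. It measured 9.32, 9.42 and 9.44 at 0 h, 9.16, 9.14 and 9.37 at 2 h, 9.61, 9.69 and 9.67 at 4 h and 10.01, 10.20 and 9.94 at 8 h. Its 4 h difference of 0.26 ± 0.0938 (adjusted p = 0.0286) was lost without vector 0 h replicate 1 (adjusted p = 0.109), without vector 4 h replicate 2 (adjusted p = 0.0835) or without vector 4 h replicate 3 (adjusted p = 0.0690). The 8 h difference was 0.66 ± 0.0938. Rrp12, an export factor, peaked at 4 h (2.07 ± 0.0699), and Utp20, a component of the early processome, reached 57.0% of its 8 h difference by then.

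The 11 large subunit factors rose by a median of 1.45 at 8 h, and 9 were called at 2 h. Rrp1b measured 9.71, 9.71 and 9.69 at 0 h, 11.15, 10.96 and 11.07 at 2 h, 11.90, 11.89 and 11.94 at 4 h and 11.77, 11.81 and 11.78 at 8 h. Its differences from 0 h at 2, 4 and 8 h were 1.35, 2.21 and 2.08 ± 0.0843, and the 4 h value was the highest of all 38 members at any time tested against 0 h. Rrs1, which helps to bring a small ribosomal RNA into the subunit, also stood highest at 4 h (2.20 ± 0.183). The 3 proteins of the PeBoW complex, which acts in large subunit processing, are encoded by Bop1, Wdr12 and Pes1. Bop1 had reached 32.3% of its 8 h difference at 2 h, Wdr12 16.4% and Pes1 3.9%. Ddx18, an RNA helicase, had the smallest rise at 8 h, with 11.25, 11.42 and 11.23 against 10.35, 10.47 and 10.37 at 0 h (0.90 ± 0.0734, adjusted p = 9.06e-11).

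The 5 multifunctional nucleolar genes held both the largest and the smallest 8 h rise of all members. Ddx21, a helicase that links RNA polymerase I to processing, measured 9.93, 9.86 and 9.68 at 0 h, 10.95, 10.96 and 11.03 at 2 h and 11.89, 12.01 and 11.89 at 8 h. It rose by 2.11 ± 0.0912 at 8 h, or 4.32-fold (adjusted p = 3.96e-16). Gnl3, nucleostemin, also rose (1.12 at 2 h and 1.78 at 8 h). Npm1, the abundant chaperone nucleophosmin, measured 12.23, 12.46 and 12.25 at 8 h, against 11.56, 11.94 and 12.05 at 0 h, a difference of 0.46 ± 0.0997 (adjusted p = 0.000345). Its lowest 8 h array lay above its highest 0 h array, but 1 array at 0 h lay well below the others. Mybbp1a, a nucleolar regulator of transcription, measured 11.17, 11.15 and 11.00 at 8 h, against 10.15, 10.13 and 9.87 at 0 h (1.06 ± 0.0813).

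**Figure D2:**
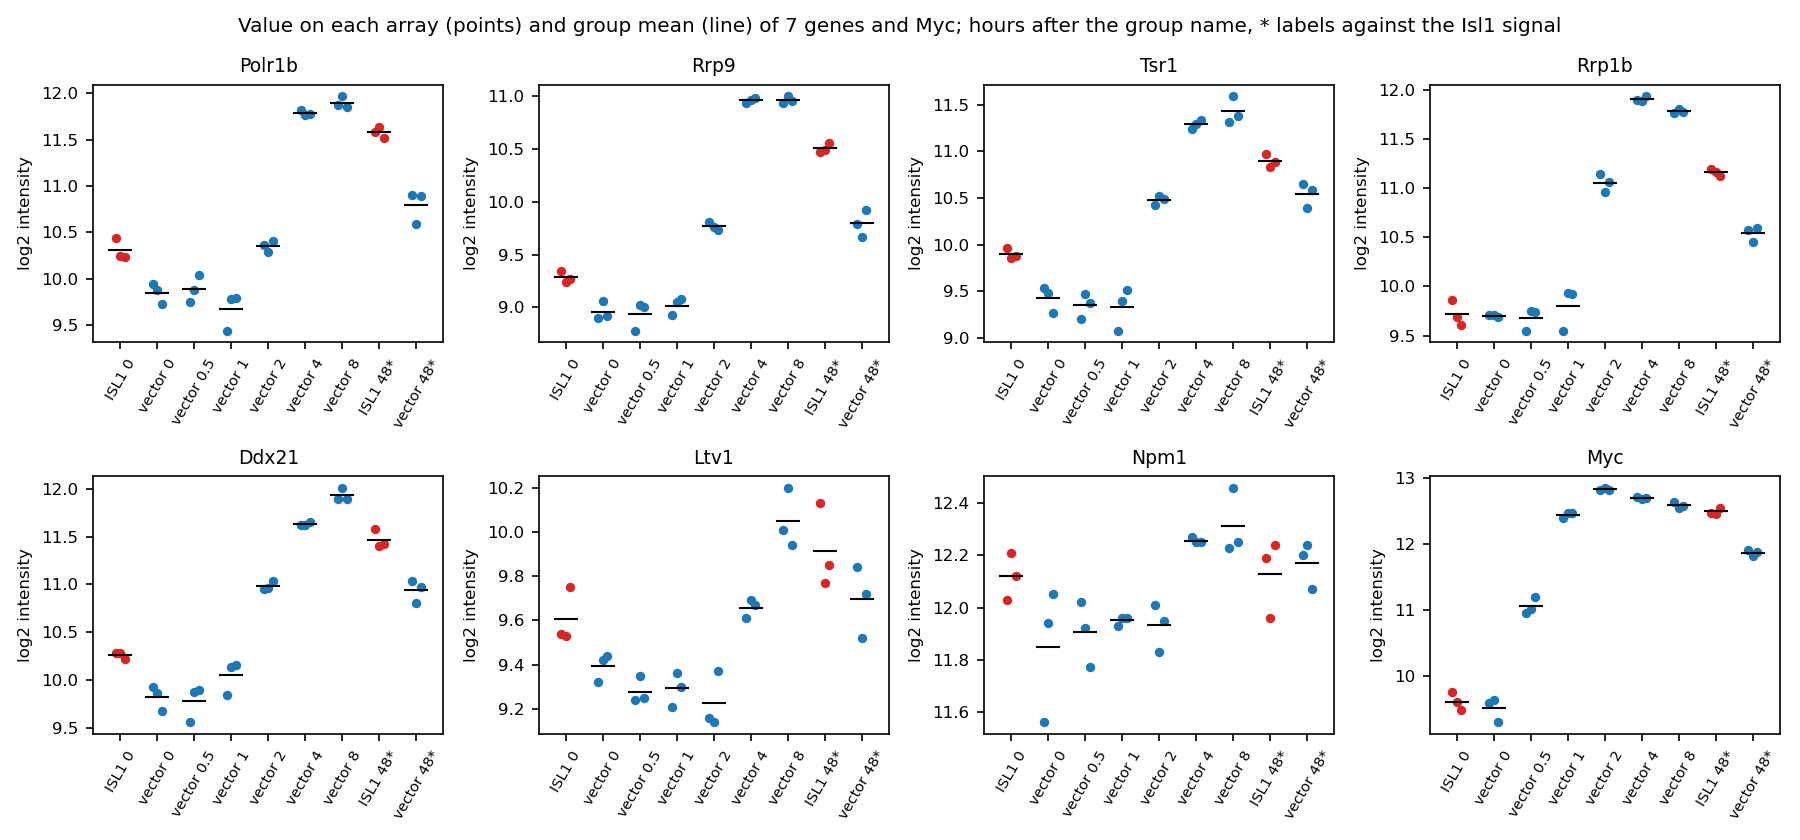
Log2 intensity on each array (points, vertical axis) with the group mean (line) for 7 of the genes and Myc in the 9 groups (horizontal axis, construct and hours, red ISL1 and blue vector). An asterisk marks the 48 h groups, whose labels go against the Isl1 signal; at 8 h Ddx21 lies between 11.89 and 12.01 and Npm1 between 12.23 and 12.46.

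For 3 members a further probe set existed. The unused sets of Fbl and Wdr12 differed at 8 h by 1.23 and 1.84, beside 1.19 and 1.77 for the sets used. For Ddx18 the unused set gave 0.67 at 8 h, beside 0.90 for the set used.

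Myc, a transcription factor known to act on ribosome biogenesis genes, rose before them. It measured 9.59, 9.64 and 9.30 at 0 h, 10.95, 11.02 and 11.19 at 0.5 h and 12.39, 12.47 and 12.47 at 1 h. Its differences from 0 h were 1.54 ± 0.0787 at 0.5 h (adjusted p = 1.33e-13) and 2.93 ± 0.0787 at 1 h, when no member and 1 member were called. At 2 h Myc stood at 12.82, 12.85 and 12.81 (3.32 above 0 h), and at 8 h at 12.63, 12.55 and 12.58 (3.08 above 0 h). Over the 9 group means its correlation with the median of the members was 0.589. The timing of Myc and of the members is a description, and the dependence of these genes on Myc was not tested.

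Promoter sequence was read for 33 of the 38 members from RefSeq (GRCm38.p6), 250 bases before to 50 after the start. The E-box CACGTG, the sequence Myc is known to bind with its partner Max, reads the same on both strands. It was found in 8 of these 33 promoters (24.2%) and in 1481 of 15563 promoters of tested genes (9.52%). The cAMP response element TGACGTCA was found in 0 of 33 members and 2.72% of genes, and the full palindromic glucocorticoid response element in 0 of 33 members and 0.0129% of genes, each searched on both strands. These 5 stretches are shown as examples: the promoter with 2 E-boxes, 3 with 1, and that of Polr1b, which had none and rose among the most. CACGTG is in capitals, each runs 5′ to 3′ on the plus strand, and each ends 30 bases after the start.
Rrn3, chr16:13780449-13780728: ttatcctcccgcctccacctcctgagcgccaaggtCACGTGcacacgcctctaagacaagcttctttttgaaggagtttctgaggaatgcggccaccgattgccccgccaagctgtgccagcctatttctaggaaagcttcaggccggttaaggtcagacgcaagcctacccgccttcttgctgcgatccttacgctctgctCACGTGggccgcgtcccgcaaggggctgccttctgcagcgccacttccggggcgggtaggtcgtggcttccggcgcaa
Nop2, chr6:125131733-125131912: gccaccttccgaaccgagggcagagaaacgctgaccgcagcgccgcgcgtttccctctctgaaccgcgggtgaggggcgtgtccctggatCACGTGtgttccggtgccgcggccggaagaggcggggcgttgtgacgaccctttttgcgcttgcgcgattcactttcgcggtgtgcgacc
Tsr1, chr11:74897930-74898109: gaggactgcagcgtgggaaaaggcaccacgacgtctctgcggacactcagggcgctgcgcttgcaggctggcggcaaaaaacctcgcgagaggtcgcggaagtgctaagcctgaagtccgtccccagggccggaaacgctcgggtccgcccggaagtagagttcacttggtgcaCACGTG
Pes1, chr11:3963825-3964004: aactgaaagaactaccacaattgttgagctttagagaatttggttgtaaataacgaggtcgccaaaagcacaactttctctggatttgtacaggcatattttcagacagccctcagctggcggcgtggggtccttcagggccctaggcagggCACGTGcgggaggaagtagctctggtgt
Polr1b, chr2:129100846-129101025: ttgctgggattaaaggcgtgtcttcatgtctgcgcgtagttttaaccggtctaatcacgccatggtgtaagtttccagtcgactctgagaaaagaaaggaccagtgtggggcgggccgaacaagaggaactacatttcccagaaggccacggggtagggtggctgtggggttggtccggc

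Counted from the start, the E-box of Nop2, a ribosomal RNA methyltransferase, began at -60, those of Rrn3 at -215 and -48, and those of Pes1 and Tsr1 at 3 and 25. The other members with the motif were Ltv1, Mybbp1a, Utp20 and Wdr43. The 8 genes with CACGTG had a median difference of 0.32 at 2 h and 1.03 at 8 h. The 25 without it had 0.36 and 1.63. Members with the motif lay between 1.05 for Tsr1 and -0.17 for Ltv1 at 2 h, and those without it spanned -0.05 to 1.35.

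Most other genes of the pathway were also called higher by 4 h, while few ribosomal protein genes were. Of 115 further assembly and processing genes, 57 were called higher and 12 lower at 2 h, 99 higher and 6 lower at 4 h, and 106 higher and 3 lower at 8 h (median 0.88). Of all genes, 17.5% were called lower at 2 h, 22.7% at 4 h and 21.9% at 8 h, beside the shares called higher given above (10.9%, 17.3% and 24.2%). Rcl1, a factor of the early processome, rose most at 8 h (1.89 ± 0.0972), and Nop53, a large subunit factor, was the lowest (-0.66 ± 0.0630). Of 7 further RNA polymerase I genes matched by symbol, of 10 listed, 4 were called higher and 1 lower at 8 h. Taf1d, a subunit of the promoter selectivity factor, rose by 1.89 ± 0.105, whereas Ubtf, which opens ribosomal DNA for transcription, fell by 0.44 ± 0.0599. Of 19 genes for RNA polymerase III, 9 were higher and 4 lower at 8 h (median 0.19). Polr3g, a subunit known from stem cells, rose by 1.91 ± 0.152, and Polr3gl, its paralogue, fell by 0.46 ± 0.0671.

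The 55 cytosolic ribosomal protein genes measured, of 79 listed, had a median difference of 0.02 at 4 h and -0.04 at 8 h, with 8 called higher and 8 lower at 8 h, where 24.2% of all genes were higher and 21.9% lower. Rpl12 was the only one called at least 2-fold higher at 8 h, by 1.98 ± 0.0951, and Rpl24 gave the lowest value (-0.19 ± 0.0919, not called). Their median level was 12.77, above the level under which 95% of all genes lay (11.93), and whether this brightness limits a measured rise was not tested. On the arrays labelled vector at 48 h, 37 of the 55 were higher than at 0 h (median 0.23, 18.1% of all genes), and 31 with the labels exchanged (median 0.19, 21.3% of all genes). Of 74 mitochondrial ribosomal protein genes, 2 were higher and 22 lower at 2 h, and 39 were higher and 11 lower at 8 h (median 0.26), with Mrpl12 the highest (0.89 ± 0.0884) and Mrpl23 the lowest (-0.77 ± 0.0809).

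**Figure D3:**
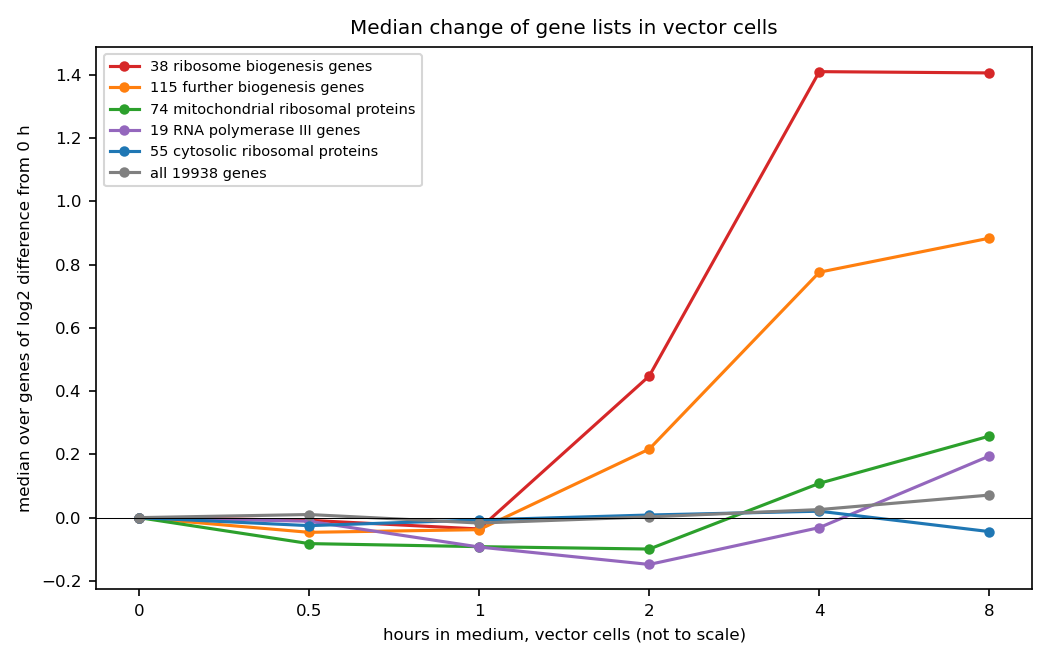
Median over the genes of each list of the log2 difference from vector cells at 0 h (vertical axis), over hours in medium (horizontal axis, not to scale). The 38 ribosome biogenesis genes reach 1.41 at 4 and 8 h, the 115 further genes of the pathway 0.88 at 8 h, and the 55 cytosolic ribosomal proteins stay at -0.04 at 8 h.

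At 0 h, before any medium, the members were already higher in ISL1 cells than in vector cells. Of the 38 genes 29 were called higher and none lower, with a median difference of 0.33, where 15.3% of all genes were called higher and the median over all genes was -0.01. The median over the 38 genes was 0.34, 0.33 and 0.34 above the vector mean on the ISL1 arrays, against 0.05, 0.02 and -0.07 on the vector arrays. These 3 vector arrays are the same that every time was compared with above. For 33 of the 38 members the ISL1 arrays lay above all vector arrays, a count that was not made over all genes.

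Dkc1 differed most, with 10.67, 10.62 and 10.58 in ISL1 cells against 10.00, 9.96 and 9.77 in vector cells (0.71 ± 0.0908, 1.64-fold, adjusted p = 7.53e-07). Mybbp1a measured 10.70, 10.64 and 10.68 in ISL1 cells, against 10.15, 10.13 and 9.87 in vector cells (0.62 ± 0.0813, adjusted p = 1.12e-06). For Wdr12 the values were 9.55, 9.54 and 9.58 in ISL1 cells and 9.0, 8.92 and 8.96 in vector cells (0.60 ± 0.0866, adjusted p = 5.39e-06). In all of these the groups did not overlap. By role, 3 of 5 RNA polymerase I genes, 6 of 7 snoRNP genes, 8 of 10 small subunit factors, 7 of 11 large subunit factors and 5 of 5 nucleolar genes were called higher. Of these 29 calls, 7 were lost in at least 1 of the 6 fits that left out 1 array: Wdr43 in 3, Rrp12 in 4, Nob1 in 1, Bysl in 4, Ddx10 in 4, Ddx18 in 4 and Npm1 in 3. The first 5 of these are small subunit factors. The call of Ddx18 (0.22) was also lost with the mean of its probe sets (adjusted p = 0.132), and its unused set differed by 0.04. The call of Npm1 (0.27 ± 0.0997, adjusted p = 0.0456) was lost without vector 0 h replicate 1 (adjusted p = 0.417), and also without ISL1 0 h replicate 2 (adjusted p = 0.183) or 3 (adjusted p = 0.0988).

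Rrp1b, the member with the highest rise in medium, was not called between the constructs at 0 h. It measured 9.86, 9.69 and 9.61 in ISL1 cells, against 9.71, 9.71 and 9.69 in vector cells (0.02 ± 0.0843, adjusted p = 0.934). Myc measured 9.75, 9.60 and 9.48 in ISL1 cells, against 9.59, 9.64 and 9.30 in vector cells, and was not called (0.10 ± 0.0787, adjusted p = 0.445). Of the 115 further pathway genes 58 were higher and 2 lower in ISL1 cells (median 0.23), and of the 55 cytosolic ribosomal proteins 3 were higher and 4 lower, where 15.3% of all genes were higher and 10.4% lower. Taf1d was higher by 0.85 ± 0.105.

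The 8 adipocyte markers moved with the construct, in the opposite direction at 0 h. Their mean level was 8.49 in ISL1 cells, against 10.46 in vector cells, with Adipoq at 6.56 in ISL1 cells, against 10.76 in vector cells. The 8 fibroblast markers averaged 12.71 in ISL1 cells, against 13.13 in vector cells. Macrophage markers averaged 6.85 in ISL1 cells, against 6.91 in vector cells. In bulk RNA, fewer cells of a type and less RNA per cell cannot be told apart. The part of the adipocyte marker difference in the member differences was not tested.

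By 48 h the genes had come down from their 8 h level but stayed above 0 h. The arrays labelled vector at 48 h carried the high Isl1 signal, so the exchanged values compare arrays of like signal. On the arrays labelled vector at 48 h, 36 of 38 members were lower than at 8 h and none higher (median -0.79), where 18.9% of all genes were called lower. Against vector 0 h, 37 were higher (median 0.68), 5 of them at least 2-fold, where 18.1% of all genes were called higher and 2.14% were at least 2-fold higher. Utp20 was the exception as labelled (0.16 ± 0.0975, adjusted p = 0.223). With the labels exchanged, 23 were lower than at 8 h (median -0.26, 14.9% of all genes lower), and 38 were higher than at 0 h (median 1.20, 21.3% of all genes higher), 24 of them at least 2-fold (2.49% of all genes). As labelled, the calls of Ltv1 and Npm1 against 0 h were each lost in 2 of 6 fits that left out 1 array. Rrp12 fell the most, by 1.29 ± 0.0699, or 2.44-fold, on the arrays labelled vector at 48 h against 8 h. Polr1c differed least, with 11.81, 11.78 and 11.90 on those arrays against 11.94, 11.80 and 11.86 at 8 h (-0.03 ± 0.0645, not called). With the labels exchanged Rrp1b fell the most (-0.62 ± 0.0843), beside -0.51 ± 0.0699 for Rrp12. Rrn3 then differed least (-0.02 ± 0.0811), and Polr1c differed by 0.12 ± 0.0645 (not called). Cytosolic ribosomal proteins ran the other way, with 36 of 55 higher and 2 lower than at 8 h as labelled, where 17.8% of all genes were called higher. With the labels exchanged 35 were higher and 1 lower, where 15.7% of all genes were higher.

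Between the 48 h groups the members were higher on the arrays labelled ISL1, which carried the low Isl1 signal. Of the 38 genes 31 were called higher and none lower (median 0.51), where 14.0% of all genes were called higher. With the labels exchanged the same 31 calls are lower in ISL1 (median -0.51), since the exchange turns the sign. Nop14, a factor of the small subunit processome, measured 11.25, 11.16 and 11.14 on the arrays labelled ISL1, against 10.42, 10.24 and 10.38 on those labelled vector (0.84 ± 0.0856, adjusted p = 1.77e-08). Wdr12 measured 10.72, 10.46 and 10.71 on the arrays labelled ISL1, against 9.77, 9.73 and 9.92 on those labelled vector (0.82 ± 0.0866, adjusted p = 2.79e-08). For Polr1b the values were 11.58, 11.64 and 11.52 on the arrays labelled ISL1 and 10.90, 10.59 and 10.89 on those labelled vector (0.79 ± 0.0944, adjusted p = 2.38e-07). The groups did not overlap in any of these.

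The 7 members not called between the 48 h groups were Npm1, Pes1, Nob1, Mybbp1a, Polr1c, Ltv1 and Ddx10. Npm1 measured 12.19, 11.96 and 12.24 on the arrays labelled ISL1 and 12.20, 12.24 and 12.07 on those labelled vector (-0.04 ± 0.0997). By role, 4 of 5 RNA polymerase I genes, 7 of 7 snoRNP genes, 7 of 10 small subunit factors, 10 of 11 large subunit factors and 3 of 5 nucleolar genes were higher. When 1 array was left out, the calls of Fbl, Bop1 and Ddx56 were each lost in 2 of 6 fits, and that of Tsr1 in 1. Myc measured 12.47, 12.45 and 12.55 on the arrays labelled ISL1, against 11.91, 11.81 and 11.88 on those labelled vector (0.62 ± 0.0787, adjusted p = 5.72e-07). The adipocyte markers averaged 11.58 on the arrays labelled ISL1, against 10.04 on those labelled vector, and Adipoq stood at 10.84 against 7.23. Fibroblast markers averaged 12.01 on the arrays labelled ISL1, against 11.95. The part of these differences in the member differences was not tested.

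**Figure D4:**
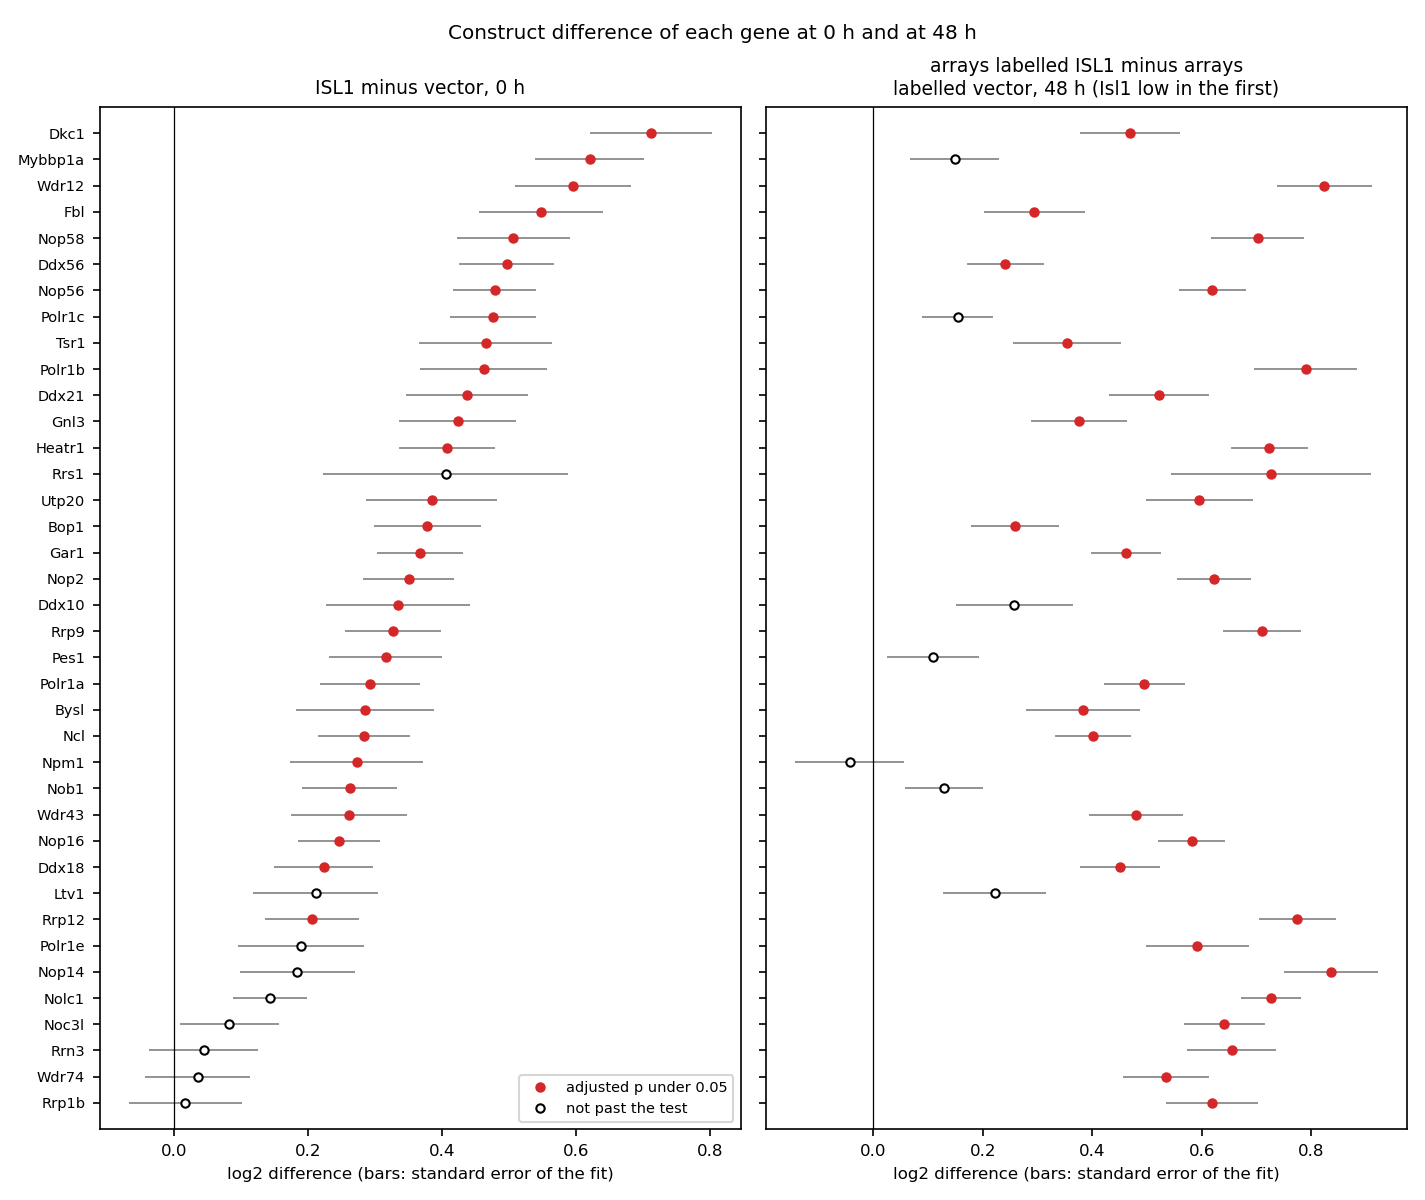
Log2 difference of each of the 38 genes (rows, ordered by the left panel) between ISL1 and vector cells at 0 h (left) and between the arrays labelled ISL1 and those labelled vector at 48 h (right); bars are standard errors of the limma fit and filled points had an adjusted p under 0.05. Dkc1 leads at 0 h with 0.71, Rrp1b lies at 0.02 there, and Nop14 leads at 48 h with 0.84.

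Within ISL1 as labelled, arrays with a low Isl1 signal at 48 h are set against arrays with a high one at 0 h. By these labels 37 of 38 members were higher at 48 h than at 0 h (median 0.92), where 20.9% of all genes were called higher. With the labels exchanged both sides had a high signal, and 24 were higher (median 0.35, 14.2% of all genes higher). Rrp1b rose most as labelled, by 1.44 ± 0.0843, and Npm1 differed by 0.01 ± 0.0997 and was not called. Leaving out 1 array ended the call of Ltv1 in 1 of 6 fits and of Mybbp1a in 2. The ISL1 effect at 48 h minus that at 0 h was called higher for 12 members and lower for 2 as labelled (median 0.20), where 12.7% of all genes were called higher and 16.3% lower. After quantile normalization 19 were higher and 3 lower. With the labels exchanged it was lower for 37 members and higher for none (median -0.79, 13.2% of all genes lower). As labelled, the median construct difference of the 38 genes thus had the same sign at both times. Read by the Isl1 signal, arrays with a high signal were higher in these genes at 0 h and lower at 48 h.

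The lower pair as labelled were Mybbp1a and Polr1c. Mybbp1a measured 11.05, 10.84 and 10.85 on the arrays labelled ISL1 at 48 h, against 10.82, 10.66 and 10.82 on those labelled vector (0.15 ± 0.0813), beside a difference of 0.62 at 0 h. Polr1c measured 11.98, 12.02 and 11.96 on the arrays labelled ISL1 at 48 h, against 11.81, 11.78 and 11.90 on those labelled vector (0.15 ± 0.0645), and 11.81, 11.75 and 11.76 against 11.38, 11.30 and 11.21 at 0 h (0.48).

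Over the 9 group means, the 10 genes outside the list most like the median of the members had correlations between 0.990 and 0.995. They were Pum3, Wdr3, Nsun2, Cd3eap, Timm29, Dohh, Zpr1, Med22, Rwdd4a and Tbl3. Wdr3 and Tbl3 encode proteins of the small subunit processome. Cd3eap encodes a subunit of RNA polymerase I, was not among the 7 further ones matched by symbol, and differed by 1.0 at 8 h. The 8 h differences of the 10 genes lay between 0.79 for Timm29 and 1.66 for Med22. Among the members themselves, each set against the median of the others, Polr1c (0.788), Ltv1 (0.839) and Npm1 (0.886) were the least alike. The 9 points share their arrays and their scaling with the members, so these correlations are a description.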

How the data were processed

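Total RNA of 27 samples was measured on 1 Affymetrix mouse array each. Per the submitters' processing notes the deposited values come from RMA (version not stated there). The authors' log2 values, 3.35 to 14.85 with 0 missing, were used as deposited. The log base is not stated and was read from the values. RMA makes array distributions alike, so a change shared by most genes would not show.

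Of 28853 probe sets, 21789 had 1 gene symbol in the platform's table and were used, 1621 had several and 5443 had none. The Entrez ID of 21698 was found in RefSeq (GRCm38.p6). Where a gene had several probe sets (999 genes) only its brightest was used, giving 19938 genes. Detection calls were not used, and the number of arrays limits the precision.

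Using limma 3.58.1 (R 4.3.3), all 27 arrays entered 1 linear model with a mean for each group, with empirical Bayes moderation (prior degrees of freedom 6.562), two-sided tests and Benjamini-Hochberg adjustment over 19938 genes in each of 15 comparisons. A call is an adjusted p under 0.05. A test of the fit on simulated data gave 212 calls, of which 18 were false. It recovered 91% of the genes set to differ 1.5-fold and 100% of those set to differ 2-fold. Groups and replicate numbers came from the labels. Members, lists, tests and alternatives were chosen with earlier results of these data known. Per-array values are given for the largest and smallest 8 h rise in each role, members called against the majority, the 3 largest construct differences at each time, Isl1, Nolc1 (added after its values were seen) and Myc; of each other list the highest and lowest gene at 8 h may be named. Names of older symbols for 3 RNA polymerase I genes were not matched, which left 7 of 10 further ones.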

Additional observations from a re-analysis of the deposited data

Results flagged for a closer look

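For 14 members the difference between the 48 h groups as labelled departed from the difference between ISL1 and vector at 0 h, by the limma test of that departure with adjustment over all genes. Both differences use their own 6 arrays, and at 48 h the labels go against the Isl1 signal. With the 48 h labels exchanged the departure was called lower for 37 members and higher for none. The 12 members with a positive departure as labelled were then negative, from -0.57 for Wdr74 to -1.13 for Heatr1. As labelled, the departure was negative for Mybbp1a (-0.47, adjusted p = 0.00229) and Polr1c (-0.32, adjusted p = 0.00793). It was positive for Nop2 (0.27), Heatr1 (0.32), Nop16 (0.34), Rrp9 (0.38), Polr1e (0.40), Wdr74 (0.50) and Noc3l (0.56). The larger ones were Rrp12 (0.57), Nolc1 (0.58), Rrp1b (0.60), Rrn3 (0.61) and Nop14 (0.65). Adjusted p-values of these 12 lay between 1.41e-06 for Nolc1 and 0.0319 for Nop2. When 1 array at a time was left out, the calls of Nop2, Polr1e and Heatr1 were lost in 7, 5 and 3 of 12 fits.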

How the results depend on the processing

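Counts of called members up to 8 h held within 1.5 times under every alternative, apart from those at 1 h. Against 0 h the count at 1 h was 4 after quantile normalization (3 higher, 1 lower), 2 without dim genes, 2 with a trended robust variance, and 0 in a fit of only the arrays compared. Against 0.5 h it was 3 after quantile normalization and 0 with only the arrays compared. At an unadjusted p under 0.05 the full fit gave 3 and 5. Leaving out 1 array at a time gave 1 to 2 against 0 h and 0 to 3 against 0.5 h. It gave 25 to 27 at 2 h, 37 to 38 at 4 h and 23 to 27 for ISL1 at 0 h. The departure of the ISL1 effects gave 22 calls after quantile normalization (19 higher, 3 lower) and 12 to 16 when leaving out 1 array.

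Exchanging the 48 h labels gave 23 members lower than at 8 h, 24 higher in ISL1 at 48 than at 0 h, and 37 lower in the departure of effects. Between the 48 h groups Polr1b became -0.79, Nop14 -0.84 and Wdr12 -0.82. In ISL1 at 48 against 0 h Gar1 became -0.071 (adjusted p = 0.448) and Utp20 -0.22 (adjusted p = 0.0869), and neither was then called. In the departure Polr1e became -0.78, Rrn3 -0.70, Nolc1 -0.87, Rrp9 -1.04, Heatr1 -1.13, Nop14 -1.02, Rrp12 -0.98, Nop2 -0.97, Nop16 -0.83, Rrp1b -0.64, Noc3l -0.72 and Wdr74 -0.57.

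Replicate numbers did not pair the arrays across all groups. Same-numbered arrays deviated together in all 3 pairs for 4 of 36 pairs of groups, and 9 of 27 arrays were closest to their own number. The 4 were vector 0.5 with 1 h, 0.5 with 4 h and 1 with 4 h, and the 48 h groups with each other (correlations 0.31, 0.55 and 0.22). A pairing within these groups alone was not fitted. With the replicate number as a block, 26, 38 and 38 members were called at 2, 4 and 8 h and 28 for ISL1 at 0 h. Npm1 in ISL1 at 0 h was then not called (adjusted p = 0.0565), nor after median centring (adjusted p = 0.0698), quantile normalization (adjusted p = 0.0804) or with only the arrays compared (adjusted p = 0.0967). Npm1 on the arrays labelled vector at 48 h was not called without vector 0 h replicate 1 (adjusted p = 0.157) or vector 48 h replicate 2 (adjusted p = 0.0516), nor Ltv1 without vector 0 h replicate 1 (adjusted p = 0.0589) or vector 48 h replicate 1 (adjusted p = 0.0947). The causes were not tested.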
